A study of Mus musculus with 4 samples.

Results

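In the cortex of APPswe/PS1ΔE9 mice, 10 genes of the microRNA machinery and of microRNA hosts were followed, chosen by name. They were the 8 genes of the core machinery, Drosha, Dgcr8, Xpo5, Dicer1, Ago1, Ago2, Ago3 and Ago4, and the genes that carry the miR-326 and miR-330 hairpins, Arrb1 and Eml2. All 10 had counts, on 26 of the 37539 transcripts and among 18386 genes. RNA was sequenced from the cortex of 2 APP/PS1 transgenic mice, called APP-3 and APP-4 (APP), and 2 wild type mice, called WT-1 and WT-2 (WT). All 4 were males of 12 months, the APP mice from a line on a C57BL/6 background and the WT mice C57BL/6J, with no treatment named. The transgenes of this line are known to be driven by the prion protein promoter, which directs them mainly to neurons of the central nervous system, beside the normal mouse genes. The study asked which RNAs might compete for shared microRNAs in these mice, and these 10 genes are those that make and load microRNAs in general and those that host the pair of microRNAs it followed up.

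A microRNA begins as a hairpin inside a longer transcript. The nuclease Drosha, held by its RNA-binding partner Dgcr8, cuts the hairpin out in the nucleus, Exportin 5 (Xpo5) carries it to the cytoplasm, and Dicer trims it to a short duplex. One strand is then kept by an Argonaute protein, which pairs it with target mRNAs mainly through a short stretch near the 5′ end, the seed. A hairpin in an intron on the same strand as its host gene can be transcribed together with the host, so the mRNA of the host is often taken as a rough guide to the primary transcript, although cutting, stability and separate promoters can part the mature microRNA from it.

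The hairpins and their mature arms are shown first because they define why Arrb1 and Eml2 are here. They were taken from RefSeq (GRCm38.p6). In the hairpins the capitals mark the 5p arm and then the 3p arm.
Mir326 hairpin: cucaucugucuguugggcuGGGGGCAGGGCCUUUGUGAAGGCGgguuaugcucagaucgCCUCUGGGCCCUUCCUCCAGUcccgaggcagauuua
Mir330 hairpin: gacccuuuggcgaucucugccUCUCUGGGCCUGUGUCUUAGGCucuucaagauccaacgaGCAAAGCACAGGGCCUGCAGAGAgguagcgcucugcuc
In the mature arms the capitals mark the seed, bases 2 to 8 from the 5′ end.
miR-326-3p: cCUCUGGGcccuuccuccagu
miR-330-5p: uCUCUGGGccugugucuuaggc
miR-326-5p: gGGGGCAGggccuuugugaaggcg
miR-330-3p: gCAAAGCAcagggccugcagaga

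The 3p arm of miR-326 and the 5p arm of miR-330 had the same seed, CUCUGGG, so both pair by the seed with the same 7 bases of a target, CCCAGAG. The other arms had seeds of their own. The arms that share the seed come from opposite sides of their hairpins and from different genes, both on the plus strand of chromosome 7.

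Mir326 lay at chr7:99552269-99552363 and Arrb1, which encodes β-arrestin 1, an adaptor that desensitizes and internalizes G protein-coupled receptors, at chr7:99535466-99606771. The hairpin was in the first intron of Arrb1-201 and Arrb1-202, an intron of 46462 bases, 16470 bases from the start of that intron. The remaining counted transcript, Arrb1-209, is annotated as a retained intron and began downstream of the hairpin. Mir330 lay at chr7:19181465-19181562 and Eml2, which encodes a microtubule-associated protein of the EMAP family, at chr7:19176421-19206482. Here the hairpin was close to an annotated transcript start: it was in the first intron of Eml2-201 and Eml2-208, an intron of 485 bases, 261 bases from the first base of Eml2-201. In Eml2-202, which starts further upstream, the same hairpin was in intron 4, an intron of 1853 bases, and was 5044 bases from the first base of the transcript.

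**Figure D1:**
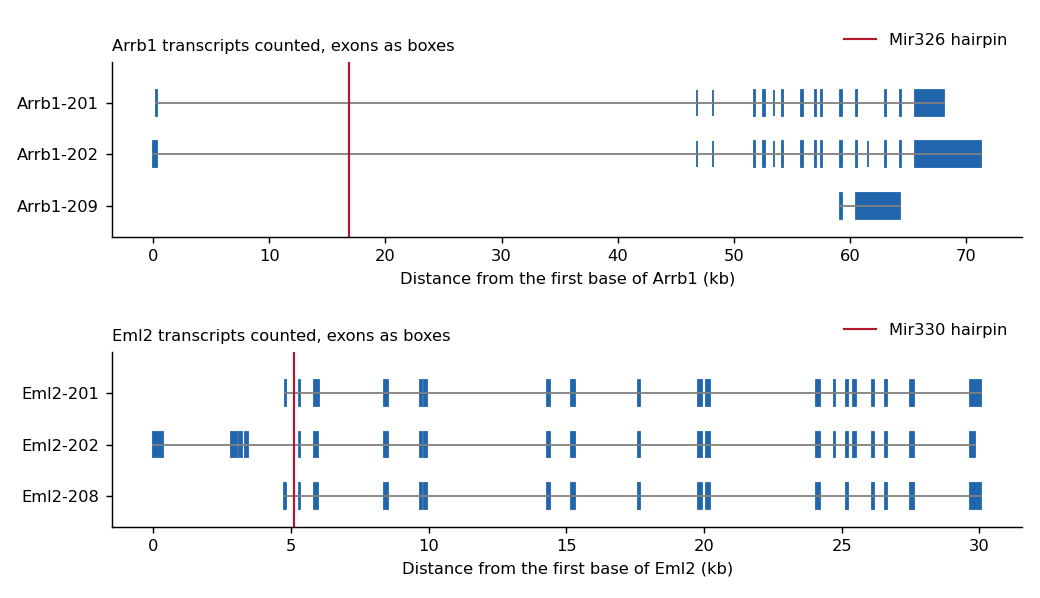
Counted transcripts of Arrb1 (top) and Eml2 (bottom), with exons as boxes, introns as lines and the distance in kb from the first base of the gene on the x axis. The red line marks the hairpin, 16470 bases into the first intron of Arrb1 and 261 bases from the start of Eml2-201.

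The labels were checked on the transgenes. App was at 2679 and 2388 CPM (counts scaled to library size by the trimmed mean of M values, TMM) in APP-3 and APP-4 and at 857.3 and 905.4 CPM in WT-1 and WT-2, and Prnp, whose promoter drives the transgenes, was also higher in both APP libraries. The libraries held 28525117 to 43881196 counts. Replicates differed by more than counting noise, and more between the APP libraries (chi-square per degree of freedom 28.7) than between the WT libraries (5.27). Several sets of cell type markers differed between the genotypes. All 16 microglial markers had higher estimates in APP (11 of 16 passed the test), with a summed level of 493.4 to 600.0 CPM against 281.1 to 283.5 CPM in WT. All 9 markers of cortical projection neurons had lower estimates (0 of 9 passed), with a summed level of 1289 to 1294 CPM against 1406 to 1478 CPM. All 8 oligodendrocyte markers had higher estimates in APP (1 of 8 passed, 4 of 8 with no limit on the fold), with a summed level of 1567 to 1780 CPM against 1162 to 1286 CPM, and so had all 8 astrocyte markers (2 of 8 passed), at 4716 to 5094 CPM against 3858 to 4232 CPM. All 6 measured hypothalamic markers, of 8 listed, had higher estimates (2 of 6 passed). Their summed levels were low, 6.03 to 9.30 CPM against 0.987 to 1.46 CPM in WT. Of 6 interneuron markers 5 had lower estimates in APP (0 of 6 passed), but the summed levels overlapped. These sums were 470.3 and 576.7 CPM in APP-3 and APP-4 and 570.5 and 529.8 CPM in WT-1 and WT-2. The summed level of 6 striatal markers was 133.9 CPM in APP-3, 292.8 CPM in APP-4 and 196.9 to 218.8 CPM in WT, so these 2 APP libraries differed from each other more than the WT libraries did. In such bulk RNA, fewer cells of a type and less RNA per cell cannot be told apart.

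None of the 10 genes passed the test between APP and WT. The test was the quasi-likelihood test of edgeR, Benjamini-Hochberg adjusted over all 18386 genes, and a call needed an adjusted p under 0.05 and a fold of at least 1.5. Over all genes 0.881% were called, nearly all of them higher in APP (0.0381% were called lower). Dropping the limit on the fold, which called 1.14% of all genes, also gave 0 of 10. At an unadjusted p under 0.05 there was 1 of 10, Ago4, against 12.1% of all genes (4.78% with a lower estimate in APP, as Ago4 had). The edgeR exact test, which called 1.93% of all genes, and DESeq2, which called 1.1%, each called 0 of 10 and each had 1 of 10 at an unadjusted p under 0.05. The estimates were small: 5 genes were above and 5 below zero (50.3% of all genes were below), with a median log2 fold change of -0.03, against -0.0011 for all genes. Among the 9348 genes with a mean of at least 10 CPM the median was -0.02, and 5373 were below zero. The 95% interval lay inside 1.5-fold in both directions for 9 of the 10 genes, all but Ago4. Among all genes 60.9% had so narrow an interval, and among the 9348 genes with a mean of at least 10 CPM, as all of these had, 95.7%. A narrow interval was thus usual for genes counted this deeply.

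Both APP libraries were below both WT libraries for Dgcr8, Ago4 and Eml2, and both were above for Dicer1. That is 4 of 10 genes whose groups did not overlap, and 42.7% of all genes had no overlap in either direction (21.4% with APP below WT and 21.3% with APP above). Of the 9348 genes with a mean of at least 10 CPM, 2573 had APP below WT and 1681 had APP above. With 2 libraries a group, the smallest p of an exact two-sided permutation test is 0.333, so a lack of overlap alone passes no test here.

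**Figure D2:**
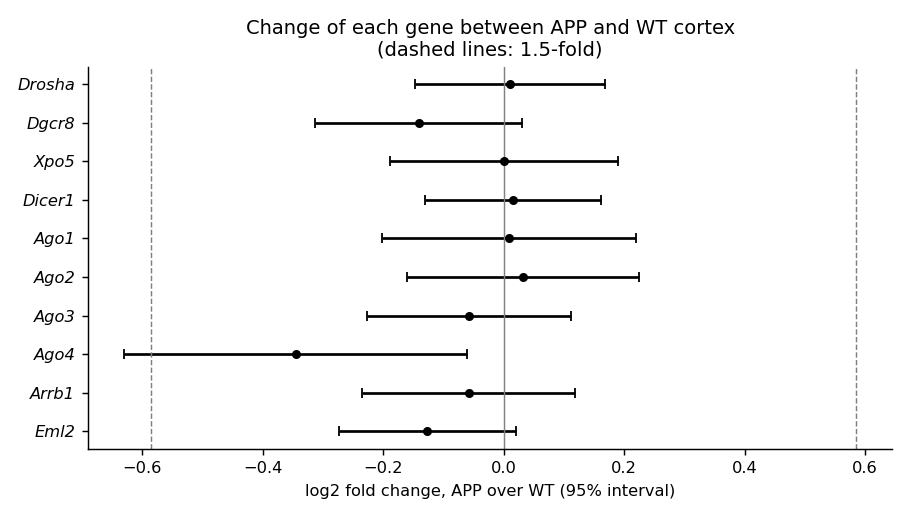
Log2 fold change of each gene, APP over WT, with its 95% interval from the edgeR quasi-likelihood fit on 2 libraries a group; the dashed lines mark 1.5-fold. Ago4 has the lowest estimate, -0.35, and the only interval that crosses a dashed line.

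The nuclear step showed no called difference. Drosha, the nuclease that cuts the hairpin free, was at 62.1 and 63.6 CPM in APP-3 and APP-4 and at 64.5 and 60.2 CPM in WT-1 and WT-2. The APP values lay between the WT values, and the log2 fold change was 0.01 (SE 0.069, 95% interval -0.15 to 0.17, adjusted p = 0.976 by edgeR's quasi-likelihood test). Drosha-201 held 94.9 to 97.1% of the counts of the gene in each library. Dgcr8, the RNA-binding subunit that recognises the hairpin with Drosha, was at 38.3 and 41.7 CPM in APP-3 and APP-4 and at 43.2 and 45.1 CPM in WT-1 and WT-2. Both APP libraries were below both WT libraries, by less than 2 CPM at the nearest pair. Its log2 fold change was -0.14 (SE 0.075, 95% interval -0.31 to 0.03, adjusted p = 0.513 by edgeR's quasi-likelihood test). Dgcr8-201 held 84.0 to 84.6% of its counts, and most of the rest, 11.3 to 12.1%, was on Dgcr8-203, annotated as a retained intron. Per transcript length, the level of Drosha was 1.48 and 1.41 times that of Dgcr8 in APP-3 and APP-4 and 1.35 and 1.24 times in WT-1 and WT-2. These ratios did not overlap between the groups, a description that follows the Dgcr8 values and was not tested.

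Export and dicing showed no called difference either. Xpo5, the export receptor for hairpin precursors, was at 39.0 and 44.7 CPM in APP-3 and APP-4 and at 42.3 and 41.4 CPM in WT-1 and WT-2. The APP libraries were the lowest and the highest of the 4, and the log2 fold change was 0.0010 (SE 0.083, 95% interval -0.19 to 0.19, adjusted p = 0.999 by edgeR's quasi-likelihood test). Dicer1, the nuclease that makes the mature duplex, was at 66.1 and 66.3 CPM in APP-3 and APP-4 and at 65.0 and 65.9 CPM in WT-1 and WT-2. Its groups did not overlap, yet the means were 66.2 CPM in APP and 65.5 CPM in WT, a log2 fold change of 0.02 (SE 0.064, 95% interval -0.13 to 0.16, adjusted p = 0.958 by edgeR's quasi-likelihood test). Dicer1 was thus apart between the groups by less than 1 CPM. Xpo5 and Dicer1 each had 1 counted transcript.

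**Figure D3:**
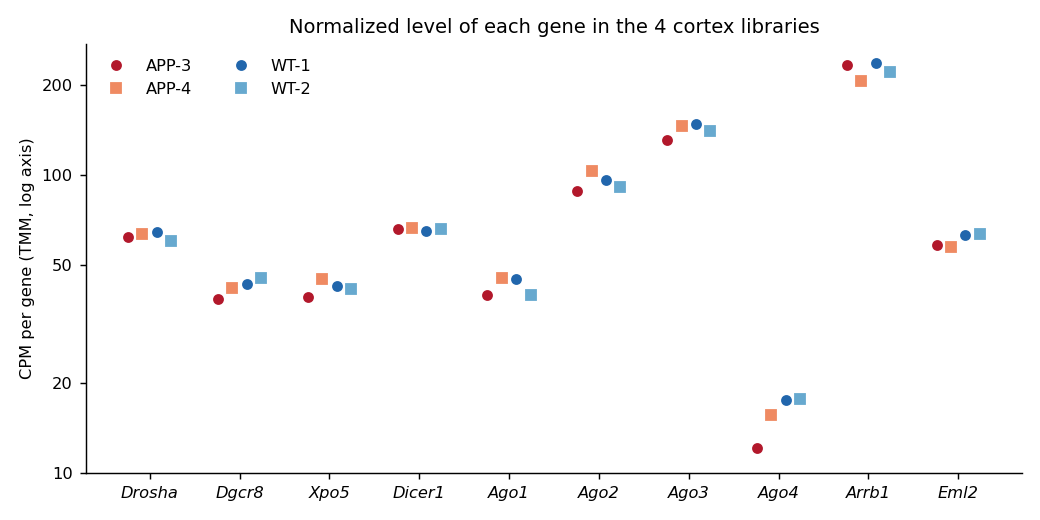
CPM of each gene (TMM, log axis) in APP-3, APP-4, WT-1 and WT-2, with 1 point per library. The points of a gene lie close together for 9 genes, and those of Ago4 run from 12.1 CPM in APP-3 to 17.7 CPM in WT-2; heights are not corrected for length and are not to be compared between genes.

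The Argonautes load the mature strand, and Ago2 is the one of them known for slicing well-paired targets. Ago1, Ago3 and Ago4 are neighbours on the minus strand of chromosome 4, at chr4:126435012-126468583, chr4:126331704-126429556 and chr4:126489541-126533472, while Ago2 is on chromosome 15. None of the 4 was called, and the estimates of the neighbours differed in sign. Ago1 was at 39.5 and 45.1 CPM in APP-3 and APP-4 and at 44.7 and 39.4 CPM in WT-1 and WT-2, with each group spanning nearly the same range. Its log2 fold change was 0.0083 (SE 0.092, 95% interval -0.20 to 0.22, adjusted p = 0.989 by edgeR's quasi-likelihood test). Ago3 was at 130.9 and 146.2 CPM in APP-3 and APP-4 and at 148.1 and 140.2 CPM in WT-1 and WT-2. The groups overlapped, and the log2 fold change was -0.06 (SE 0.075, 95% interval -0.23 to 0.11, adjusted p = 0.837 by edgeR's quasi-likelihood test). Ago2 was at 88.4 and 103.4 CPM in APP-3 and APP-4 and at 96.5 and 91.2 CPM in WT-1 and WT-2. The APP libraries lay on either side of both WT libraries, and the log2 fold change was 0.03 (SE 0.084, 95% interval -0.16 to 0.22, adjusted p = 0.931 by edgeR's quasi-likelihood test).

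Ago4 had the largest estimate of the 10 genes and the fewest reads, 352 and 484 in the APP libraries and 774 and 627 in the WT libraries, in the order used throughout. Scaled for library size, it was at 12.1 and 15.6 CPM in APP-3 and APP-4 and at 17.6 and 17.7 CPM in WT-1 and WT-2. The WT libraries were nearly equal, both APP libraries were lower, and APP-3 was the lowest. The means were 13.9 ± 2.47 CPM in APP and 17.7 ± 0.053 CPM in WT (SD, n = 2 each). The log2 fold change of Ago4 was -0.35 (SE 0.12, 95% interval -0.63 to -0.06, unadjusted p = 0.0231 and adjusted p = 0.303 by edgeR's quasi-likelihood test), which corresponds to 0.787-fold with an interval of 0.646 to 0.959. It did not pass after adjustment, and 1285 of the 18386 genes had an estimate at or below it. The size rested on APP-3: without APP-3 the log2 fold change was -0.18 (adjusted p = 0.403 by the same test), and without APP-4 it was -0.54 (adjusted p = 0.00241), still short of 1.5-fold. In these fits the lone APP library is assumed to vary like the WT libraries. Without WT-1 or WT-2 the estimate was -0.35 and -0.34, with adjusted p of 0.748 and 0.838 by the same test. The summed markers of projection neurons were also lower in both APP libraries, and those of the striatum were lowest in APP-3. Their part in the Ago4 values was not tested.

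The make-up of the Argonaute pool was much alike in the 4 libraries. In CPM per kb of transcript, a scale on which genes can be compared, the 4 Argonautes summed to 26.5 and 30.03 in APP-3 and APP-4 and to 29.6 and 28.1 in WT-1 and WT-2. Ago3 held 40.1 to 44.4% of that sum in the 4 libraries, Ago2 23.5 to 24.96% and Ago1 22.0 to 25.1%. Ago4 held 8.44 and 9.84% in APP-3 and APP-4 and 9.96 and 11.9% in WT-1 and WT-2, so its share was the smallest in every library. Each count was divided by the length of its own transcript, so short transcripts not annotated as coding weighed more here than in the counts. Ago3-205, of 625 bases, held 0.927 to 1.42% of the counts of Ago3. Ago4-202, of 574 bases, had 7 reads in WT-1 and 14 in WT-2. The shares rest in part on such transcripts. Reads of 100 bases could be assigned to 1 Argonaute nearly everywhere: Ago1-201 and Ago3-201 had 71 windows of 100 bases in common, 0.996% and 0.458% of their windows, and no other sharing with a counted transcript of another gene was found for the 4 Argonautes. This covers identical windows only, while the alignment allowed mismatches.

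The hosts of miR-326 and miR-330 also did not pass. Arrb1 was at 233.7 and 207.3 CPM in APP-3 and APP-4 and at 237.5 and 221.7 CPM in WT-1 and WT-2. The groups overlapped, with APP-4 the lowest and WT-1 the highest. Its log2 fold change was -0.06 (SE 0.078, 95% interval -0.24 to 0.12, adjusted p = 0.843 by edgeR's quasi-likelihood test). Eml2 was at 58.2 and 57.4 CPM in APP-3 and APP-4 and at 62.9 and 63.3 CPM in WT-1 and WT-2. Both APP libraries were below both WT libraries, and the libraries of a group were within 1 CPM of each other. Its log2 fold change was -0.13 (SE 0.065, 95% interval -0.27 to 0.02, unadjusted p = 0.0836 and adjusted p = 0.492 by edgeR's quasi-likelihood test), 0.916-fold with an interval of 0.827 to 1.01. Leaving out any 1 library kept it between -0.14 and -0.11. The mature microRNAs and their hairpins were not analysed here: none of the 47 rows of the microRNA class was Mir326 or Mir330.

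The transcripts that run over the hairpins held nearly all of the counts of the host genes. For Arrb1 they held 98.1 and 98.0% in APP-3 and APP-4 and 97.7 and 98.6% in WT-1 and WT-2. For Eml2 all 3 counted transcripts span the hairpin, so the share was 100% in every library by annotation. Arrb1-201 took 48.4 to 52.8% and Arrb1-202 took 45.4 to 49.6% of the counts of Arrb1. These 2 transcripts differ in the extent of their first and last exons and in a coding exon of 24 bases, exon 13 of Arrb1-202 at chr7:99597036-99597059, which Arrb1-201 skips. It adds 8 codons, and is shown because it is the one internal exon that tells the 2 apart.
Arrb1-202 exon 13: cctcttgggagaccttgcatccag

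Between APP and WT the log2 fold change was -0.03 (SE 0.093) for Arrb1-201 and -0.08 (SE 0.077) for Arrb1-202, so neither form stood out. The transcripts shared 97.3% of the 100-base windows of Arrb1-201, and the split of counts between them is uncertain. Eml2-201, which starts beside Mir330, held 79.9 to 81.2% of the counts of Eml2, and Eml2-202, which starts upstream, held 18.4 to 19.8%. Their log2 fold changes were -0.13 (SE 0.077) and -0.09 (SE 0.12). Eml2-208, of the nonsense-mediated decay class, had 5 to 11 counts a library. Of the windows of Eml2-201, 92.8% were shared with other transcripts of the gene, and here too the split is uncertain.

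At the level of transcripts, 0 of the 26 passed edgeR's quasi-likelihood test, against 0.807% of all 37539 transcripts, and 1 of 26 had an unadjusted p under 0.05, against 9.18% of all. That was Ago4-201, which held 97.7 to 99.1% of the counts of Ago4, with a log2 fold change of -0.35 (SE 0.12, adjusted p = 0.284 by edgeR's quasi-likelihood test). The exact test (1.15% of all transcripts called) and DESeq2 (0.557%) called 0 of 26 as well, each with 1 at an unadjusted p under 0.05. For 7 genes there were several counted transcripts, which could be tested for a shift in their use. None of these 7 was called by edgeR's transcript usage test (0.133% of 7495 genes were), and none had an unadjusted p under 0.05 (2.75% of genes had), the lowest being 0.792 for Ago4. The other most counted transcripts, Ago1-201, Ago2-201, Ago3-201, Dicer1-201, Xpo5-201, Drosha-201 and Dgcr8-201, had log2 fold changes between -0.14 and 0.03.

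Per transcript length the host genes stood above the machinery. Mean levels over the 4 libraries were 46.7 ± 3.12 CPM per kb for Arrb1 and 25.7 ± 1.32 CPM per kb for Eml2 (SD, n = 4). Drosha followed at 14.5 ± 0.354 CPM per kb, then Ago3 at 12.0 ± 0.237 and Dgcr8 at 10.6 ± 0.821 CPM per kb (SD, n = 4). Xpo5 was at 8.24 ± 0.469 CPM per kb, and Ago2, Ago1 and Dicer1 came next at 6.88 ± 0.479, 6.79 ± 0.744 and 6.68 ± 0.0545 CPM per kb. Ago4 was the lowest at 2.87 ± 0.457 CPM per kb. In this order only Ago2 and Ago1, and Ago1 and Dicer1, overlapped in their ranges over the 4 libraries, and every other pair of neighbours was apart. The level of Drosha was 2.11 to 2.25 times that of Dicer1 in the 4 libraries. The counts of each transcript were divided by its annotated length and then summed per gene. A gene whose transcripts end earlier than annotated is thus understated, and short transcripts with few reads weigh more than in the counts. The levels of Ago1, Ago3 and Ago4 rest in part on such short transcripts, among them Ago1-203 and Ago1-204 with 50 and 43 reads. The order was not checked on the most counted transcripts alone, and the places of Ago1 and Ago3 in it are uncertain.

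**Figure D4:**
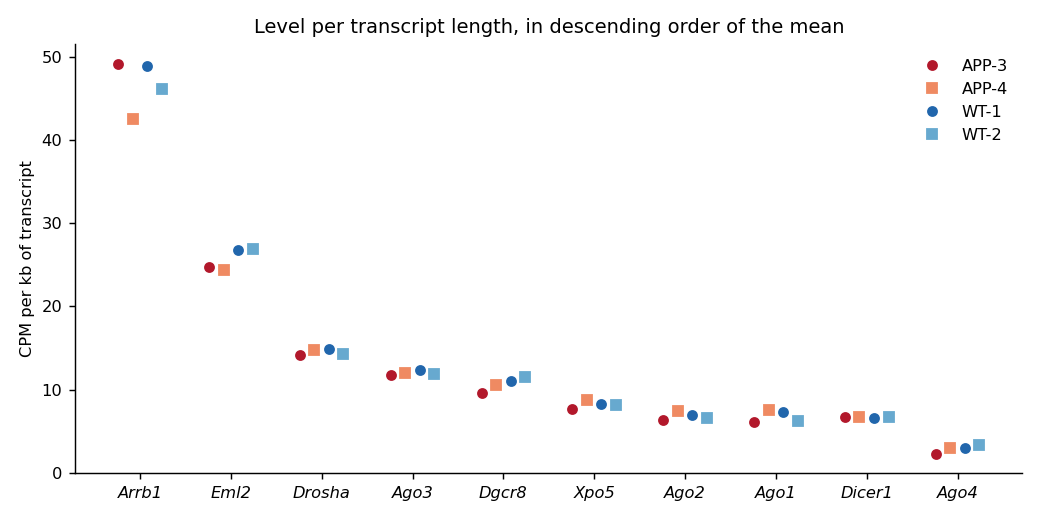
CPM per kb of transcript for each gene in the 4 libraries, in descending order of the mean. Arrb1 and Eml2 lie above all genes of the machinery, and Ago4 lies below the rest in every library.

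No other gene of the pathway was called. Of 65 listed partners and downstream factors 64 had counts, and 0 were called by edgeR's quasi-likelihood test, the exact test or DESeq2. By the quasi-likelihood test 4 of 64 had an unadjusted p under 0.05, a smaller share than the 12.1% of all genes. The median log2 fold change of the 64 genes was -0.0050, with a range of -0.26 to 0.17, and 62 of 64 had an interval inside 1.5-fold, all but Trim71 and Henmt1, which were at a mean of 1.71 and 0.446 CPM. By role, the median was 0.03 for 9 helpers of the microprocessor, 0.07 for 3 partners of Dicer, -0.02 for 15 factors of the silencing complex, -0.02 for 23 factors of deadenylation and decapping, and -0.0047 for 13 factors of microRNA end modification and turnover. Ran, the GTPase that works with Exportin 5, was at -0.0042.

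The partners nearest to the 10 genes can be read one by one. Tarbp2 encodes the TRBP partner of Dicer. It was at 6.48 and 6.01 CPM in APP-3 and APP-4 and 7.49 and 7.50 CPM in WT-1 and WT-2. Its estimate was the lowest of the listed partners and factors (log2 fold change -0.26, SE 0.13). Prkra, which encodes PACT, another double-stranded RNA-binding partner of Dicer, had the highest, at 10.7 and 9.81 CPM in APP-3 and APP-4 and 9.49 and 8.72 CPM in WT-1 and WT-2 (log2 fold change 0.17, SE 0.12). The alternative partners of Dicer thus had estimates of opposite sign, each with an interval that included zero, and the difference between them was not tested. Tsnax, which encodes the translin partner TRAX, and Dcp2, the catalytic subunit of decapping, had log2 fold changes of -0.21 (SE 0.064) and -0.18 (SE 0.073). Hnrnpa1, an RNA-binding protein that helps process some hairpins, and Trim71, a ubiquitin ligase and RNA-binding protein known from early development, had 0.16 (SE 0.063) and 0.15 (SE 0.23). Tsnax, Dcp2 and Hnrnpa1, with Trim32 (-0.16), a ubiquitin ligase named here after its value was seen, were the 4 genes at an unadjusted p under 0.05, and their adjusted p was 0.218 to 0.360 by edgeR's quasi-likelihood test.

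**Figure D5:**
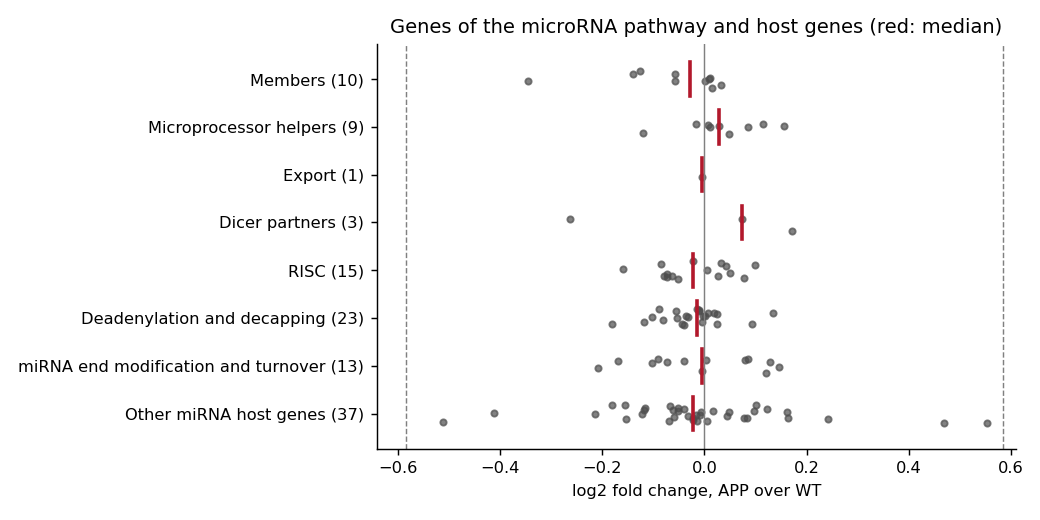
Log2 fold change, APP over WT, of the 10 genes (top row, Members), the groups of the pathway and other host genes, with 1 point per gene, the number of genes in parentheses, a red bar at the median and dashed lines at 1.5-fold. No point lies beyond the dashed lines, and the widest spread is among the other host genes, from -0.51 for Arpp21 to 0.55 for Htr2c.

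Host genes of other microRNAs were a closer comparison for Arrb1 and Eml2. Of 38 such genes 37 had counts, and 32 of the 38 held a RefSeq hairpin on their own strand. None was called by edgeR's quasi-likelihood test, the exact test or DESeq2, 3 of 37 had an unadjusted p under 0.05 (12.1% of all genes had), and the median log2 fold change was -0.02. The estimates of Arrb1, -0.06, and Eml2, -0.13, were inside the range of the others. Arpp21, host of miR-128-2 and a cAMP-regulated phosphoprotein of forebrain neurons, had the lowest, at 298.1 and 385.5 CPM in APP-3 and APP-4 and 494.4 and 480.7 CPM in WT-1 and WT-2. Both APP libraries were lower and APP-3 was the lowest, with a log2 fold change of -0.51 (SE 0.11, adjusted p = 0.0747 by edgeR's quasi-likelihood test) that became -0.71 without APP-4 and then passed. Slit2, host of miR-218-1 and an axon guidance ligand, was at 34.8 and 41.3 CPM in APP-3 and APP-4 and 49.9 and 51.5 CPM in WT-1 and WT-2 (log2 fold change -0.41, SE 0.089, adjusted p = 0.0798 by edgeR's quasi-likelihood test). Htr2c, which encodes a serotonin receptor and holds miR-448, was at 34.7 and 47.0 CPM in APP-3 and APP-4 and 30.8 and 24.8 CPM in WT-1 and WT-2. Both APP libraries were higher, with a log2 fold change of 0.55 (SE 0.15, adjusted p = 0.160 by edgeR's quasi-likelihood test), and Htr2c passed at 0.75 without APP-3 and at 0.72 without WT-1. Projection neuron markers were also lower in both APP libraries, as Arpp21 and Slit2 were, and the striatal sum was lowest in APP-3. The hypothalamic markers were higher in both APP libraries, as Htr2c was, among them Sim1 at 0.9996 and 1.098 CPM in APP-3 and APP-4 against 0.0455 CPM in WT-1 and 0 in WT-2. Of 5 thalamic markers 3 had higher estimates and 0 of 5 passed. The highest estimate was that of Tcf7l2, at 2.59 and 3.84 CPM in APP-3 and APP-4 against 1.798 and 1.58 CPM in WT-1 and WT-2. Lef1 (-0.31) and Rora (-0.10) had lower estimates. The thalamic sums overlapped, at 246.5 and 220.7 CPM in APP-3 and APP-4 and 242.1 and 229.8 CPM in WT-1 and WT-2. All 3 measured choroid plexus markers, of 4 listed, had lower estimates, and 0 passed. The part of these cells in the 3 values was not tested.

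Of the remaining genes of this list named by rank, Egfl7, Copz2 and Lpp, the last of which held no RefSeq hairpin on its own strand, had log2 fold changes of -0.21 (SE 0.15), 0.47 (SE 0.37) and 0.24 (SE 0.11). Paralogs of the host genes were checked as possible sources of shared reads. Arrb2, which encodes the other widely expressed β-arrestin, was at 13.0 to 14.5 CPM in APP and 11.9 to 13.1 CPM in WT, and Eml1, Eml3, Eml4, Eml5 and Eml6 had log2 fold changes of 0.05, 0.23, -0.11, -0.05 and 0.27. None of these 6 passed, and none shared a 100-base window with a counted transcript of Arrb1 or Eml2. Only identical windows were compared, while the alignment allowed mismatches, so shared reads are not excluded.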

How the data were processed

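The deposited table held read counts per Ensembl transcript. Per the methods, the authors removed ribosomal RNA with Ribo-Zero and sequenced paired, stranded reads. They dropped read pairs matching SILVA, used FANSe2 with up to 7 mismatches to place the others on Ensembl mouse transcripts, and kept transcripts with at least 10 reads. The Ensembl release is not given in the sources used here. The submitters' processing notes list CASAVA 1.8, edgeR and hg19, a human build, and no coordinate was taken from the deposited files. A further 4 deposited columns, named as CPM values, were not used. Nor were the authors' own fold changes, p-values and false discovery rates. The APP columns matched the labels by group only.

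Gene symbols in the table were blank for 22.0% of transcripts and otherwise mixed in case and age (Argonautes as EIF2C1 to EIF2C4, Drosha as rnasen), and an exact match of the symbol found 3 of the 10 genes. Transcripts were therefore summed per gene of GENCODE M21 (GRCm38), matched on identifier (36858 of 37539), with unmatched ones kept under their own entry. This replaced the sum by symbol first planned, which became an alternative. Tests were edgeR 4.0.16 (TMM, quasi-likelihood), its exact test and transcript usage test (diffSpliceDGE, Simes), and DESeq2 1.42.0, in R 4.3.3, on all features with at least 10 counts over the 4 libraries. A call needed an adjusted p under 0.05 and, outside the usage test, a fold of at least 1.5. SE is the absolute log2 fold change divided by the square root of the F statistic. Intervals use the total degrees of freedom of the fit, the residual ones plus prior ones borrowed from all genes. The code was tested on simulated data. Windows of 100 bases were compared between the reference sequences of the counted transcripts.

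The genes and lists were chosen with earlier results of these data known. The text names all 10 genes, their most counted transcripts, the transcripts that span the hairpins, 6 paralogs, and the 3 highest and 3 lowest estimates of each list among genes with a mean of at least 1 CPM. Of other lists, 2 of 8 astrocyte, 1 of 8 oligodendrocyte and 2 of 6 measured hypothalamic markers were called higher, and 0 of the endothelial, interneuron, thalamic, striatal and choroid plexus markers. Reads carried no molecular identifiers. Each library is 1 mouse, so p-values rest on the spread between these 4 samples, with that of each gene moderated by the spread of other genes.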

Additional observations from a re-analysis of the deposited data

How the results depend on the processing

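The 5 counts of calls were the same under the other settings tried: DESeq2, the edgeR exact test, library totals without TMM, other filters on low counts, no limit on the fold, an F test for transcript use and the sum by deposited symbol, where each applied. So was the direction of all 10 log2 fold changes, none moving by more than 0.01, and these scalings left the median of all genes within 0.0037 of zero. Leaving out 1 library mattered more. The number of other host genes called ran from 0 to 1 (Arpp21 without APP-4, Htr2c without APP-3 or WT-1), and the other counts stayed at 0. Estimates near zero changed sign: Drosha ran from -0.0334 to 0.0610, Xpo5 from -0.10 to 0.10, Ago1 from -0.0887 to 0.10, Ago2 from -0.0835 to 0.14, Ago3 from -0.14 to 0.0201 and Arrb1 from -0.15 to 0.0281. Those of Dgcr8 (-0.20 to -0.08), Dicer1 (0.0065 to 0.03), Ago4 (-0.54 to -0.18) and Eml2 (-0.14 to -0.11) kept theirs. No paired analysis was made, because no label pairs an APP mouse with a WT mouse. With 2 mice a group the precision is that of the intervals given, and a call also needed 1.5-fold and an adjusted p over all genes, so smaller differences could not be called.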
